A study of Mus musculus with 30 samples.

Results

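The 38 genes described here are induced by type I interferon, and they were chosen as a list of gene symbols matched to the rows of 3 deposited expression tables from mice that model myeloid neoplasms arising after chemotherapy. Of the 38 genes, 36 had a row among the 11740 genes measured in LSK cells, 36 among 11275 genes measured in bone marrow and 38 among 20619 genes measured in stromal cells. In all, 21039 gene names were measured. Mx1 and Mx2 had no row in the LSK table, and Gbp3 and Gbp6 had none in the marrow table. All mice were C57BL/6. LSK cells (lineage-negative, Sca1+, Kit+ marrow cells, which hold stem and early progenitor cells) were sorted before any myeloid disease, in 4 groups of 3 libraries. EAP with ENU was marrow with 1 functional copy of Egr1 and of Apc (Egr1+/-, Apc del/+) and a Trp53 shRNA, transplanted into wild type recipients, with the alkylating mutagen ENU given to donor and recipient. EAP was the same genotype and shRNA without ENU. Transplanted WT was wild type marrow with a luciferase shRNA in wild type recipients, and WT was marrow that was never transplanted and carried no shRNA. The transplanted groups were sampled about 2 months after transplantation. The library EAP 1 was kept in EAP by its title, although 1 of its labels names wild type donor marrow.

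Bone marrow libraries came from 6 mice with AML, whose Egr1+/-, Apc del/+ marrow carried the Trp53 shRNA, and 6 mice with MDS, whose Egr1+/-, Apc del/+ marrow carried the luciferase shRNA. All recipients were wild type. Donor and recipient were given ENU for AML 1, 4 and 5 and for all MDS mice, AML 6 had ENU in the recipient alone, and AML 2 and 3 had none. Disease and shRNA went together, so AML and the Trp53 shRNA cannot be told apart here. Mesenchymal stromal cells were grown from compact bone to passage 1 or 2. There were 3 libraries from wild type mice given 100 mg/kg ENU 1 month earlier and 3 from wild type mice given 10% ethanol (mock). The labels do not say that the LSK or stromal libraries of a group came from separate animals, so p-values measure the spread between these libraries.

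Type I interferons bind a receptor made of Ifnar1 and Ifnar2, whose kinases phosphorylate Stat2 among other factors. Stat2 joins Irf9 in the complex ISGF3, which binds interferon-stimulated response elements in the promoters of its targets. The targets include sensors of viral RNA and DNA, enzymes and GTPases that block viral growth, and inhibitors such as Usp18 that end the response. In bone marrow, type I interferon is known to drive quiescent stem cells into cycle, and a low tonic level keeps many of these genes expressed without infection.

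Promoter sequences are given for the genes on which the results turn, to show the element through which ISGF3 acts. RefSeq promoters on build GRCm38.p6 ran from 250 bases before to 50 bases after each start and were found for 27 of the 38 genes. The element was searched as GAAANNGAAA on both strands (TTTCNNTTTC when read on the other strand), and capitals mark each match or run of overlapping matches.
Ifit3 (chr19:34583279-34583578, plus strand): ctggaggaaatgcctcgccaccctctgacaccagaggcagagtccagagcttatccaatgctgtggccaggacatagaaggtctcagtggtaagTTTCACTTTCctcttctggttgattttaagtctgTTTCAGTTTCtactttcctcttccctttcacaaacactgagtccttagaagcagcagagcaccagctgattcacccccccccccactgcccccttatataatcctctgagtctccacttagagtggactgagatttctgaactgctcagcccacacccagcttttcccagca
Ifit1 (chr19:34640639-34640938, plus strand): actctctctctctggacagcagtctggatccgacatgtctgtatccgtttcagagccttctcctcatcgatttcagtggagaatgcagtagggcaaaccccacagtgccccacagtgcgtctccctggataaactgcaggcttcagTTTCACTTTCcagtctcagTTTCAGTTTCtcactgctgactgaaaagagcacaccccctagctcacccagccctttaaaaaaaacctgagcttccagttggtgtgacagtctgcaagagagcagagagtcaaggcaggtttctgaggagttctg
Rsad2 (chr12:26456403-26456702, minus strand): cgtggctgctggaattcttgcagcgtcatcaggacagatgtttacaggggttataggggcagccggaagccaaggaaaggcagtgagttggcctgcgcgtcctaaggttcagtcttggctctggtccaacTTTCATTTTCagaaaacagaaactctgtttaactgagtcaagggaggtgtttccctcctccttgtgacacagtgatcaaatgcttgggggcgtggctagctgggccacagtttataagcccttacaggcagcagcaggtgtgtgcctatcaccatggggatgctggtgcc
Isg15 (chr4:156200769-156201068, minus strand): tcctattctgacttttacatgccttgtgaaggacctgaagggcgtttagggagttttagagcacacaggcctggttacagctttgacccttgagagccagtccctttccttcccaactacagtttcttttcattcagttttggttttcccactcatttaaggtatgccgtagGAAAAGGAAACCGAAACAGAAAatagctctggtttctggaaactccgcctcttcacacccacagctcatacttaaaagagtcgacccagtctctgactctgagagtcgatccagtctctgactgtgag
The first match lay 156 bases before the start in Ifit3, 104 in Ifit1, 120 in Rsad2 and 78 in Isg15, which held 3 overlapping matches. The core was found in 15 of the 27 genes (55.6%), against 1079 of all 27025 genes with a promoter (3.99%). A second motif, TTCNNNGAA on either strand, the core of the gamma-activated site, stood in 6 of the 27 (22.2%), against 9.55% of all genes. It can share bases with the first. Cmpk2, Irf7, Irf9, Oasl2 and Xaf1 were among those whose windows held no interferon-stimulated response element core. A match is a description of these letters, not a shown binding site. Gbp6 and Usp18 were among the 11 genes with no promoter in the set.

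Summed values per library ran from 808377 to 1437201 in LSK cells, from 803746 to 1118648 in marrow and from 924162 to 939600 in stromal cells. The marrow libraries held 17341986 to 21698808 reads, while the depth of the others is unknown. In LSK cells the 3 libraries with the highest sums, WT 2, transplanted WT 3 and EAP 1, stood apart from the other 9, and results are given with and without them. Trp53, the target of the shRNA, was 70.6, 173 and 76.1 in EAP with ENU, 65.5, 132 and 106 in EAP, 308, 370 and 247 in transplanted WT and 349, 213 and 339 in WT, with no overlap between libraries with and without its shRNA. In marrow Trp53 was 23.002 to 57.96 (median 30.2) in AML and 43.2 to 97.9 (median 64.8) in MDS. LSK markers such as Kit and Cd34 were expressed in every LSK library, and Ptprc, which marks blood cells, was 1.29 TPM or less in every stromal library.

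Per kilobase of annotated transcript, the highest mean levels in LSK cells were those of Bst2, a membrane protein that tethers virus particles (216 per kb), and Lgals3bp, a secreted glycoprotein (175 per kb), and the lowest was that of Parp14, an ADP-ribosyltransferase (0.812 per kb). In marrow Rsad2, the antiviral enzyme viperin, was highest at 108 per kb and Ifit3 lowest at 0.934 per kb. In stromal cells, where TPM is already per length, Lgals3bp averaged 246 TPM, Bst2 80.3 TPM and Ifit3 39.3 TPM.

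LSK cells of the EAP groups had lower levels of 2 interferon response genes than wild type LSK cells. The groups also differed in the Trp53 shRNA, in ENU and in the share of transplanted libraries. With transplanted WT as the only controls neither gene passed. When the 6 EAP libraries, with and without ENU, were set against the 6 wild type libraries, Ifit3 and Gbp6 fell and no member rose. Ifit3 encodes a tetratricopeptide protein of the same family as Ifit1, and Gbp6 a guanylate binding protein, a GTPase that acts against intracellular pathogens. The 2 were called among 36 members tested (limma with Benjamini-Hochberg adjustment over all genes, in a fit of 4 groups that share 1 spread), and 0.0966% of all 11383 genes were called lower and 0.0615% higher. The log2 change was below 0 for 33 of the 36, with a median of -0.33, while 50.9% of all genes lay below 0, with a median of -0.01. In sorted cells as in marrow, fewer cells that express a gene and less RNA per cell cannot be told apart.

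Ifit3 (chromosome 19, 34583531 to 34588731 in mm10) was 3.66, 2.15 and 4.69 in EAP with ENU, 9.33, 4.32 and 5.66 in EAP, 11.9, 9.11 and 8.39 in transplanted WT, and 16.4, 22.3 and 25.2 in WT. Every WT library lay above every other library, and every EAP with ENU library except the third lay below every library outside its group, while EAP 1 overlapped transplanted WT. The mean was 4.97 ± 2.44 in all EAP and 15.6 ± 7.01 in all WT (n = 6 each, ± SD). The log2 change was -1.46 ± 0.24 (SE), with an adjusted p of 0.0421 by limma. Gbp6 (chromosome 5, 105270702 to 105293698) was 4.44, 2.59 and 3.18 in EAP with ENU, 5.07, 2.41 and 1.68 in EAP, 8.68, 8.40 and 7.85 in transplanted WT, and 20.7, 75.1 and 19.96 in WT. All 6 EAP libraries lay below all 6 wild type libraries, and WT 2 stood far above the rest. The log2 change was -2.10 ± 0.34 (adjusted p = 0.0421 by limma). Reads of Ifit3 and Gbp6 can be shared with their near-identical copies Ifit3b and Gbp10, so both values are uncertain as to the copy.

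**Figure D1:**
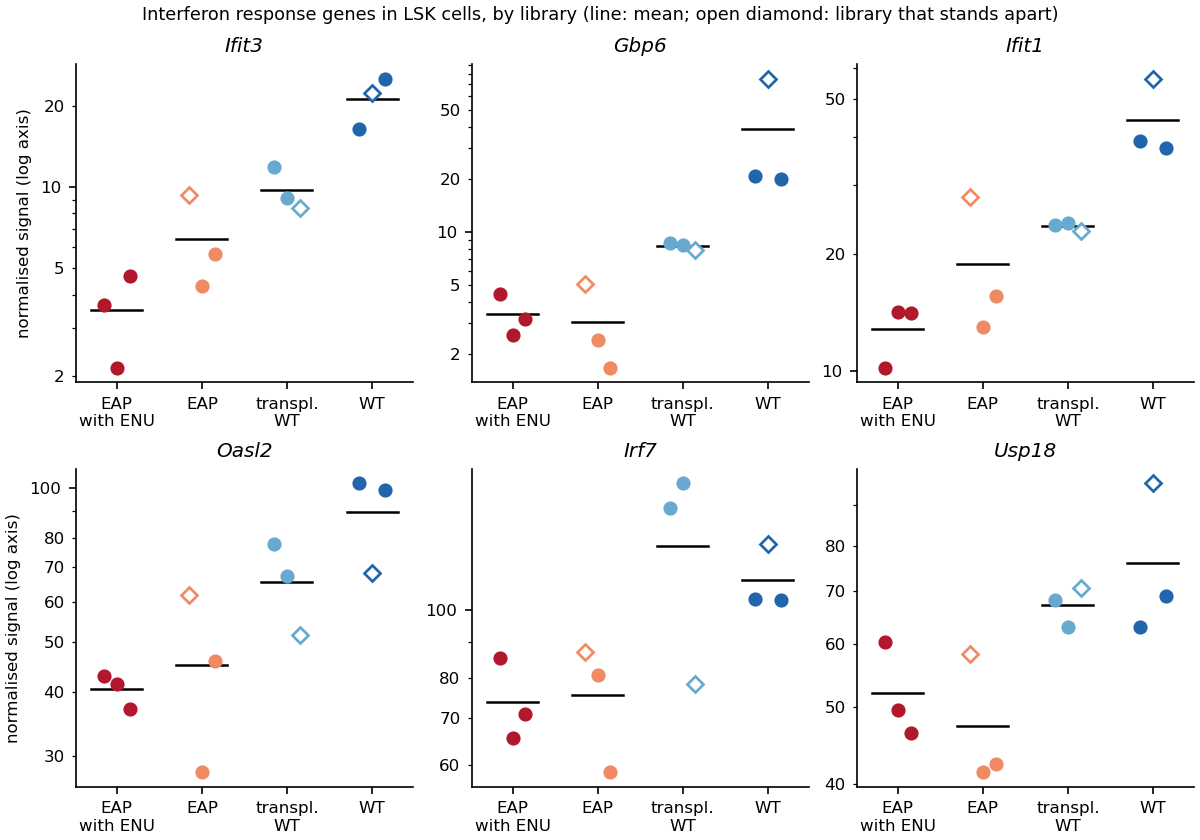
Normalised signal (log axis) of 6 interferon response genes in each LSK library, with EAP with ENU, EAP, transplanted WT and WT from left to right. Points are libraries, lines are group means and open diamonds are the 3 libraries that stand apart. For Gbp6 all EAP libraries, at 5.07 or less, lie below all wild type libraries, at 7.85 or more.

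The next 4 genes by unadjusted p did not pass. Ifit1, which binds viral RNA lacking a host cap mark, was 10.2, 14.2 and 14.0 in EAP with ENU, 28.0, 13.0 and 15.6 in EAP, 23.7, 23.9 and 22.9 in transplanted WT, and 39.0, 56.4 and 37.3 in WT (-1.04 ± 0.21, adjusted p = 0.116 by limma). WT was above all other groups, and EAP 1 was the only EAP library above transplanted WT. Oasl2, a homologue of the oligoadenylate synthetases, was 42.9, 41.6 and 37.1 in EAP with ENU, 61.7, 27.9 and 45.9 in EAP, 77.8, 67.3 and 51.8 in transplanted WT, and 102, 68.1 and 99.1 in WT (-0.84 ± 0.21, adjusted p = 0.197 by limma). EAP 1 overlapped transplanted WT 3, and the other EAP libraries lay below all wild type ones.

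Irf7, the transcription factor that amplifies interferon production, was 85.3, 65.5 and 71.0 in EAP with ENU, 87.3, 80.7 and 58.6 in EAP, 140, 152 and 78.5 in transplanted WT, and 104, 124 and 104 in WT. Only transplanted WT 3 overlapped the EAP libraries, and the change was -0.62 ± 0.19 (adjusted p = 0.361 by limma). Usp18, the protease that removes Isg15 and inhibits the receptor, was 60.4, 49.6 and 46.4 in EAP with ENU, 58.4, 41.4 and 42.4 in EAP, 68.3, 63.1 and 70.6 in transplanted WT, and 63.1, 95.8 and 69.0 in WT. The groups did not overlap (-0.52 ± 0.16, adjusted p = 0.361 by limma). Gbp6 and Usp18 were the 2 members lower without overlap, and 0.474% of all genes were. No member was higher without overlap (0.246% of all genes).

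By role, the log2 change of all EAP against all WT had a median of -0.48 over Irf7, Irf9, Stat2 and Usp18, the parts and regulators of ISGF3, and all 4 lay below 0. The 5 nucleic acid sensors Ddx58, Ifih1, Dhx58, Zbp1 and Eif2ak2 lay between -0.36 and -0.22. The 5 oligoadenylate synthetase genes ran from -0.84 for Oasl2 to 0.29 for Oasl1, and the 6 genes of Isg15 and of ubiquitin and ADP-ribose transfer from -0.55 to -0.29. Among the guanylate binding proteins Gbp6 was at -2.10 and Gbp3 at 0.45. No change in these groups passed other than Ifit3 and Gbp6.

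**Figure D2:**
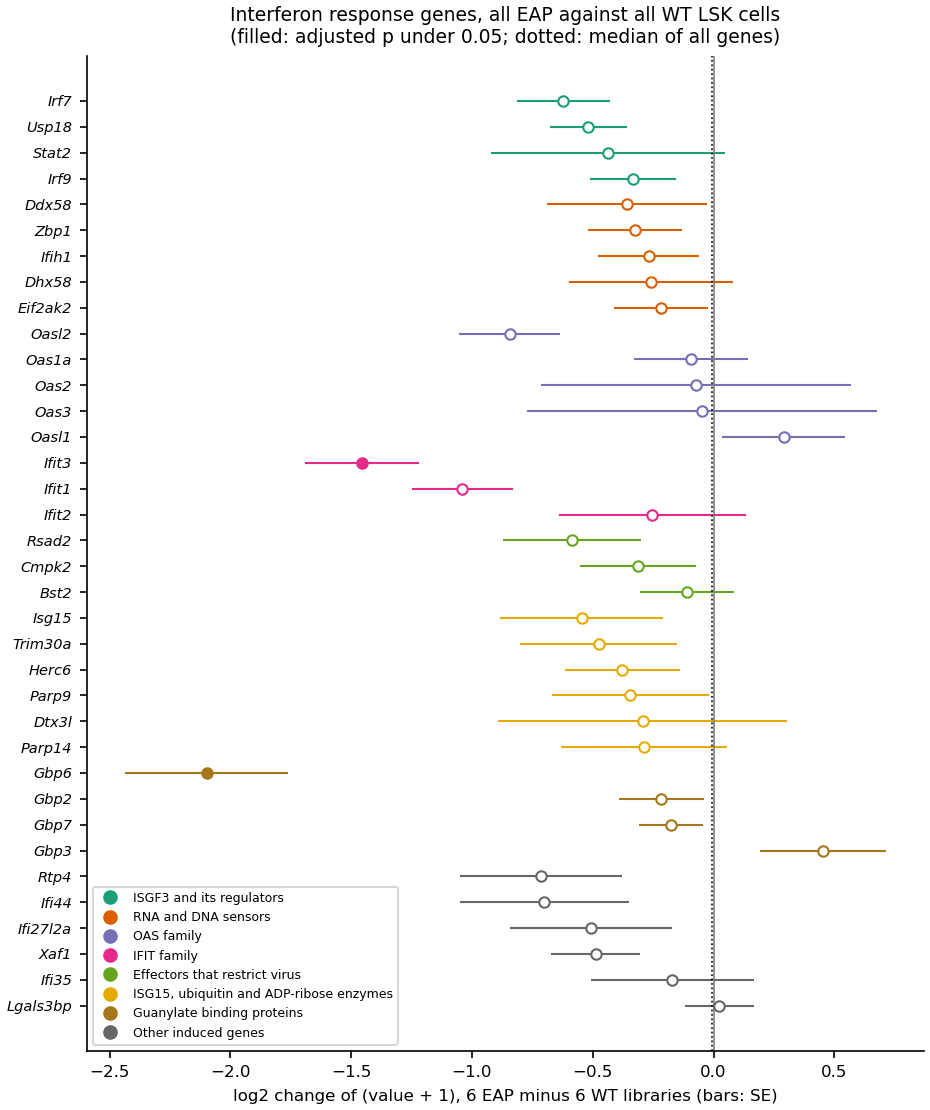
Log2 change of each of 36 interferon response genes in LSK cells, 6 EAP minus 6 wild type libraries, with bars for the SE and colours for the role. Filled points, Ifit3 and Gbp6, passed; 33 of 36 points lie left of 0, and the dotted line is the median of all genes, at -0.01.

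This contrast is not balanced for transplantation, since all EAP libraries and only 3 of the 6 wild type libraries were transplanted, so genotype and transplantation cannot be told apart in it. With transplanted WT as the only controls, a comparison added after the values were seen, the log2 change was -0.94 for Ifit3 and -1.19 for Gbp6 (adjusted p = 1.00 for both, limma), and no member passed. The median over members was -0.19. With the libraries fitted as 2 groups of 6, neither passed (adjusted p = 0.193 for Ifit3 and 0.186 for Gbp6, limma). The calls of Ifit3 and Gbp6 also ended without each of 10 of the 12 libraries in turn, the exceptions being WT 2 and EAP 1.

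The 4 comparisons between single LSK groups called 0 of 36 members each, and they share libraries with one another. Transplanted WT against WT, which asks what transplantation and the control vector changed together, called 0.0256% of all genes. Members had a median log2 change of -0.27, with 28 of 36 below 0 (50.1% of all genes), and 5 members had an unadjusted p under 0.05 (7.29% of all genes). In it Ifit3 was at -1.04 ± 0.33 (adjusted p = 0.539), Gbp6 at -1.81 ± 0.48 (adjusted p = 0.442) and Ifit1 at -0.86 ± 0.30 (adjusted p = 0.572 by limma). Without overlap 8 members lay lower in transplanted WT and 2 higher, against 8.42% and 7.71% of all genes.

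Other genes separated transplanted WT from WT but did not pass. Gbp7 was 51.6, 51.2 and 46.9 in transplanted WT and 76.4, 82.0 and 70.5 in WT, with no overlap (-0.60 ± 0.19, adjusted p = 0.527 by limma). Ifi44, an interferon-induced gene, was 31.9, 36.6 and 9.68 in transplanted WT and 66.95, 43.5 and 62.5 in WT, again lower in every transplanted library (-1.29 ± 0.49, adjusted p = 0.612 by limma). Bst2 ran the other way, at 209, 249 and 171 in transplanted WT and 132, 170 and 131 in WT, without overlap (0.53 ± 0.27, adjusted p = 0.744 by limma).

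EAP against transplanted WT, which asks what the genotype and the Trp53 shRNA changed, called 0.0256% of all genes and no member. The median change was -0.39, and 29 of 36 members lay below 0 (52.9% of all genes), and 4 had an unadjusted p under 0.05 (3.61% of all genes). Of the members with the smallest p, Gbp6 was at -1.29 ± 0.48, Irf7 at -0.67 ± 0.27 and Usp18 at -0.51 ± 0.23 (adjusted p = 1.00 for each, limma). Ifi27l2a, a small interferon-induced protein with the near-identical copy Ifi27l2b, was 24.0, 13.8 and 30.7 in EAP and 53.9, 90.1 and 27.9 in transplanted WT, and EAP 3 overlapped transplanted WT 3. Zbp1, a sensor of Z-form nucleic acid, was 16.2, 10.99 and 11.7 in EAP and 24.1, 19.8 and 14.96 in transplanted WT, with EAP 1 above transplanted WT 3. Bst2 was 178, 90.4 and 170 in EAP, so that EAP 1 overlapped transplanted WT 3. Their log2 changes were -1.21 ± 0.47, -0.56 ± 0.27 and -0.56 ± 0.27. The count of members at an unadjusted p under 0.05 rested on single libraries, as did that of all genes, which was 424 with every library kept. It was 20 members without the 3 libraries that stand apart, where 1662 of 11727 genes reached it. Without EAP 1 it was 13 members, where 1115 of 11738 genes did. It was 1 member without EAP 2 (373 genes), transplanted WT 1 (346 genes) or transplanted WT 2 (248 genes). The median was -0.56 without transplanted WT 3 and -0.21 without transplanted WT 1, and no member passed in any of these. In EAP, 2 members lay lower and 1 higher without overlap, against 3.18% and 3.8% of all genes.

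EAP with ENU against EAP, which asks what ENU added, called 0% of genes and 0 members, and 2 members had an unadjusted p under 0.05 (5.26% of all genes). The median change was 0.19, with 25 of 36 above 0 (52.9% of all genes). Gbp3 was 75.9, 105 and 97.7 in EAP with ENU and 40.2, 53.8 and 50.03 in EAP, with no overlap (0.93 ± 0.37, adjusted p = 0.909 by limma). Ifi44 was 38.6, 34.1 and 30.6 in EAP with ENU and 7.12, 14.1 and 24.5 in EAP, also without overlap (1.27 ± 0.49, adjusted p = 0.909 by limma). Ifi27l2a was 43.1, 35.7 and 41.3 in EAP with ENU, above every EAP library (0.85 ± 0.47). These 3 were the members higher without overlap, and 6.68% of all genes were. No member was lower without overlap (5.98% of all genes). Herc6, the main ligase for Isg15 in the mouse, was 18.7, 12.7 and 16.5 in EAP with ENU and 41.0, 23.8 and 15.6 in EAP, with overlap (-0.63 ± 0.34). Ifit3 (-0.71 ± 0.33) and Ifit1 (-0.46 ± 0.30) did not pass either.

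EAP with ENU against transplanted WT called 0.0171% of genes and no member, with a median change of -0.12. The change was below 0 for 24 of 36 (48.7% of all genes), and 6 had an unadjusted p under 0.05 (3.21% of all genes). Lower values without overlap were found for 10 members (8.61% of all genes), among them Ifit3 at -1.29 ± 0.33 (adjusted p = 0.781 by limma), Ifit1 at -0.84 ± 0.30, Gbp6 at -1.10 ± 0.48 and Oasl2 at -0.66 ± 0.29 (adjusted p = 1.00 for each). Gbp3 was the 1 member higher without overlap (1.02 ± 0.37, adjusted p = 1.00 by limma), and 9.9% of all genes were. Irf7 was at -0.68 ± 0.27 with transplanted WT 3 inside the EAP range. By mean log2 level, WT was the highest of the 4 groups for 24 of 36 members (66.7%, against 29.9% of all genes), and EAP was the lowest for 20 (55.6%, against 26.8% of all genes).

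The 3 LSK libraries that stand apart differed from the other libraries of their groups by transcript length. Over the members with transcripts of 3500 bases or more, the median log2 difference was -1.16, and 11 of 14 were lower. It was 0.21 over the 9 members under 2000 bases, and over all genes it was -0.60 and 0.54. Oas3, which makes the oligoadenylates that activate RNase L, was at 1.49, 1.79 and 1.24 in the 3 libraries and at 10.99 to 23.1 in the other 9. In all, 9 members were lowest in these 3 libraries, namely Ifit2, Oas3, Stat2, Ddx58, Dhx58, Parp9, Parp14, Dtx3l and Gbp3, and 19.1% of all genes were. Leaving the 3 libraries out, a choice made after the values were seen, 13 members were lower and none higher in all EAP against all WT, while 241 and 133 of 11550 genes were. They were Ifit3, Ifit1, Gbp6, Oasl2, Irf7, Usp18, Rsad2, Rtp4, Xaf1, Ifi44, Ddx58, Dhx58 and Dtx3l, with Ifit3 at -1.61 (adjusted p = 0.0160) and Gbp6 at -1.98 (adjusted p = 0.00246 by limma). With a term for these libraries 7 members were lower, while 202 genes were. In transplanted WT against WT, Gbp6 (-1.16, adjusted p = 0.0436 by limma) was the 1 member called without them, and 318 genes were called lower and 172 higher of 11727. With the term 3 members were lower, and 145 genes were lower and 130 higher of 11730, against 3 genes called in all with neither change. The cause of the length difference was not tested.

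Of the receptor genes in LSK cells, Ifnar1 was 30.8, 31.5 and 33.3 in EAP with ENU, 32.6, 48.5 and 34.6 in EAP, 37.0, 33.2 and 36.7 in transplanted WT, and 49.8, 30.1 and 44.6 in WT. Ifnar2 averaged 185 ± 29.7 in all EAP and 179 ± 27.7 in all WT (SD, n = 6 each). Both receptor genes overlapped between groups. Over 36 measured pathway genes (ligands, receptors, kinases, factors, adaptors and inhibitors) none passed in all EAP against all WT, with a median of -0.09, 24 below 0 and 4 at an unadjusted p under 0.05. Tlr7, a sensor of single-stranded RNA, was 3.35 ± 2.92 in all EAP and 13.0 ± 9.07 in all WT (-1.82 ± 0.50, adjusted p = 0.257 by limma), with overlap. No interferon ligand had a row in the LSK table.

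Of 69 other interferon-induced genes tested, none passed in all EAP against all WT, with a median of -0.07 and 10 at an unadjusted p under 0.05. The smallest p belonged to Gbp9, a further guanylate binding protein, at 1.07 ± 0.644 in all EAP and 4.01 ± 2.45 in all WT (-1.22 ± 0.28, adjusted p = 0.149 by limma). Iigp1, an immunity-related GTPase, was at -0.69 ± 0.19, Samd9l at -0.63 ± 0.17 and Phf11b at -0.55 ± 0.16. In the 4 comparisons between single groups, neither list had a gene that passed (limma), and 0 to 9 of a list had an unadjusted p under 0.05. Ly6a, which encodes the Sca1 protein used to sort these cells, was 194, 245 and 174 in EAP with ENU, 122, 78.0 and 165 in EAP, 161, 190 and 107 in transplanted WT, and 186, 134 and 199 in WT. Summed markers of other cells moved between the groups as well: neutrophil and granule genes summed to 6421, 9003 and 8358 in EAP with ENU, 16997, 2543 and 2856 in EAP, 2793, 4494 and 6770 in transplanted WT, and 1947, 1824 and 1909 in WT. Their part in the interferon gene values was not tested.

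In bone marrow with AML, 1 of 36 interferon response genes was lower than in marrow with MDS, which is near the share of all genes called. Rsad2, which makes a nucleotide that stops viral polymerases, was the 1 of 36 members called in AML against MDS, and 3.2% of all genes were called (2.21% lower and 0.994% higher). The members' median log2 change was 0.19 and that of all genes 0.04, and 23 of 36 lay above 0 (52.7% of all genes). An unadjusted p under 0.05 was reached by 5 of 36 members, a smaller share than the 29.3% of all genes that reached it.

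Rsad2 (chromosome 12, 26442746 to 26456452) was 115, 20.2, 3.06, 306, 90.8 and 20.8 in AML 1 to 6 and 1824, 381, 361, 1028, 405 and 329 in MDS 1 to 6. All AML libraries lay below all MDS libraries, with AML 4 the nearest and AML 3 the lowest. The mean was 92.7 ± 114 in AML and 721 ± 602 in MDS (n = 6 each, ± SD). The log2 change was -3.74 ± 0.90 (SE), with an adjusted p of 0.0466 by limma. It was the 1 member lower without overlap, and 2.13% of all genes were, while none was higher without overlap (1.71%). The call ended with a pseudocount of 0.1 (adjusted p = 0.0543 by limma), in edgeR on the recovered reads (adjusted p = 0.0674) and without any MDS library or AML 2, 5 or 6.

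The next members did not pass. Isg15, a ubiquitin-like protein joined to other proteins, ranged from 3.57 to 36.2 (median 10.8) in AML and from 21.2 to 292 (median 46.3) in MDS, with AML 1 and 4 inside the MDS range (-2.39 ± 0.65, adjusted p = 0.0584 by limma). Cmpk2, a mitochondrial nucleotide kinase gene beside Rsad2 on chromosome 12, ranged from 10.0 to 56.9 (median 22.2) in AML and from 39.3 to 98.1 (median 53.2) in MDS (-1.12 ± 0.35, adjusted p = 0.0762 by limma). AML 1 alone overlapped MDS. Mx2, a dynamin-like antiviral GTPase, went the other way, at 1.23 to 9.24 (median 2.98) in AML and 0.477 to 2.49 (median 0.870) in MDS (1.10 ± 0.35, adjusted p = 0.0828 by limma), and MDS 1 overlapped AML.

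Lgals3bp ranged from 19.3 to 68.2 (median 37.4) in AML and from 17.0 to 30.1 (median 23.9) in MDS, and Xaf1, a partner of an inhibitor of apoptosis, from 10.4 to 71.9 (median 26.4) in AML and from 7.37 to 30.2 (median 13.6) in MDS. Both overlapped, with log2 changes of 0.61 ± 0.27 and 0.89 ± 0.44 (adjusted p = 0.153 and 0.192 by limma). Without AML 1, whose neutrophil markers were the highest of the AML libraries, Rsad2, Cmpk2 and Isg15 were lower, and Lgals3bp and Mx2 higher, at an adjusted p of 0.0129 to 0.0422 (limma). That is 5 of 36 members, while 21.9% of all 11273 genes were then called. Without AML 4, Isg15 was called beside Rsad2, and 2.96% of genes were called.

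**Figure D3:**
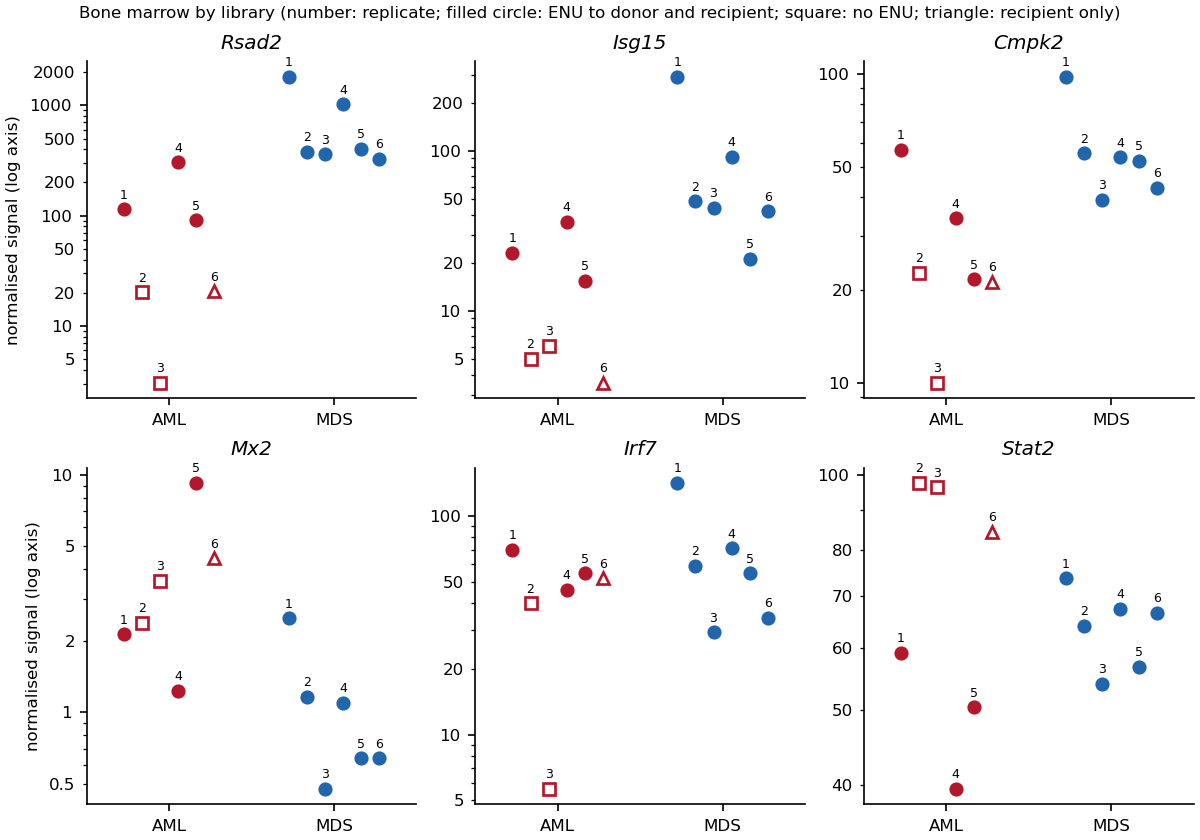
Normalised signal (log axis) of 6 interferon response genes in bone marrow, AML at left and MDS at right, 1 point a library with its replicate number. Filled circles had ENU in donor and recipient, squares no ENU and the triangle ENU in the recipient alone. Rsad2 is at 306 or less in AML and at 329 or more in MDS.

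The markers of other cells differed between these marrows. Neutrophil and granule genes summed to 433 to 114210 (median 16861) in AML and 57586 to 92824 (median 68154) in MDS, and AML 1 alone lay within or above the MDS range. Erythroid genes summed to 15.6 to 4064 (median 724) in AML and 5567 to 18543 (median 8218) in MDS, with no overlap. T and NK cell genes summed to 1568 in AML 4, 2676 in AML 5, 472 in AML 6 and 230 in AML 1, against 208 or less in every MDS library. They summed to 120 in AML 2 and 107 in AML 3, within the MDS range. AML 3 had a Ptprc value of 15.3, where the other marrow libraries had 645 to 1719, and B cell genes summing to 2424 there. Their part in the Rsad2, Isg15 and Cmpk2 values was not tested.

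Ifnar1 was 73.5 to 238 (median 115) in AML and 112 to 133 (median 127) in MDS, and Ifnar2 47.7 to 258 (median 79.4) in AML and 120 to 162 (median 144) in MDS. Both overlapped, and neither passed. Ly6a was 4.88 to 36.0 in AML and 6.04 to 24.5 in MDS. None of 38 pathway genes passed in limma, with a median of -0.22 and 11 at an unadjusted p under 0.05. Of 63 other interferon-induced genes 3 were lower in AML and 2 higher. Isg20, an RNA exonuclease, was 32.5 ± 27.6 in AML and 223 ± 109 in MDS (-3.10 ± 0.57, adjusted p = 0.0370), and Ube2l6, the conjugating enzyme for Isg15, 84.4 ± 74.5 in AML and 390 ± 148 in MDS (-2.62 ± 0.53, adjusted p = 0.0423 by limma). Irgm2, an immunity-related GTPase, was lower at -1.57 ± 0.36, Nmi, an interferon-induced adaptor, higher at 0.68 ± 0.15, and Sp110, named after its value was seen, higher at 0.60 ± 0.14.

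AML with ENU (AML 1, 4 and 5) was set against the 6 MDS mice, which all had ENU, to compare the diseases at like exposure. No member and 0% of genes passed. The median was -0.03 with 21 of 36 below 0 (48.4% of all genes). It was -0.38 with the replicate block, with 5 members above 0. The block sets each AML library against the MDS library of its number alone, although marrow numbers did not pair. Over libraries left out the median lay between -0.24 (without AML 5) and 0.17 (without MDS 1, with 23 above 0), so its sign rests on single libraries. Of the members 2 had an unadjusted p under 0.05 (14.8% of all genes). In edgeR on the recovered reads 0 members passed and 3 had an unadjusted p under 0.05, as did 2025 of 11275 genes. Rsad2 was at -1.95 ± 0.69 (adjusted p = 0.287 by limma), the 1 member lower without overlap (4.43% of all genes), and none was higher (5.13%). Mx2 was at 1.06 ± 0.46, Isg15 at -1.34 ± 0.66, Cmpk2 at -0.63 ± 0.37 and Lgals3bp at 0.47 ± 0.28. Stat2 was 59.1, 39.6 and 50.3 in AML with ENU and 54.0 to 73.7 (median 65.3) in MDS, where AML 1 overlapped (-0.36 ± 0.17, adjusted p = 0.340 by limma).

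AML with ENU was also set against AML without ENU (AML 2 and 3), which asks what ENU changed within AML, and this comparison shares its ENU libraries with the one before. No member passed and 0.408% of all genes did, while 12 of 36 members had an unadjusted p under 0.05 (12.5% of all genes). In edgeR 0 members passed, while 15 of 11275 genes did. There 11 members had an unadjusted p under 0.05, as did 1514 of all genes. The members were spread in both directions, 19 above 0 and 17 below, with a median of 0.06. Rsad2 was 115, 306 and 90.8 in AML with ENU and 20.2 and 3.06 in AML without ENU (3.999 ± 0.88, adjusted p = 0.0782 by limma). Oas3 was 111, 55.4 and 61.8 in AML with ENU and 24.5 and 4.78 in AML without ENU (2.60 ± 0.79, adjusted p = 0.186 by limma). Both genes were higher in every AML library with ENU, as were Irf7 and Isg15, making 4 members (8.31% of all genes).

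Stat2 was lower, at 59.1, 39.6 and 50.3 in AML with ENU and 97.7 and 96.4 in AML without ENU (-0.97 ± 0.22, adjusted p = 0.0782 by limma). Parp9, which acts in ADP-ribosylation with Dtx3l, was 40.6, 40.8 and 48.5 in AML with ENU and 75.7 and 82.1 in AML without ENU (-0.85 ± 0.30). Ddx58, the RNA sensor RIG-I, was 58.4, 29.8 and 52.4 in AML with ENU and 78.1 and 85.0 in AML without ENU (-0.84 ± 0.30). These were among 8 members lower without overlap, where 6.69% of all genes were. Gbp7 was 24.96, 16.7 and 48.0 in AML with ENU and 41.8 and 201 in AML without ENU, with overlap (-1.72 ± 0.62). With AML 2 left out, 11 of 36 members passed, 6 lower and 5 higher, while 22.7% of all genes did. AML 3 is then the lone library without ENU and is assumed to vary like the others, and its Ptprc value of 15.3 was far below theirs. Without AML 1 Stat2 passed (-1.10, adjusted p = 0.0388 by limma), and 1.61% of genes did.

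Single marrow libraries differed for many members at once. MDS 1 was the highest MDS library for 31 of 36 members, and 24.1% of all genes were highest there. The exceptions were Ifit2, Ifit3, Oasl1, Bst2 and Ddx58. Isg15 was 292 in MDS 1 and at most 92.4 in the other 5, Ifit1 25.02 and at most 5.66, and Usp18 25.9 and at most 5.49. In MDS 1, 22 members lay at least 1 log2 unit above the median of the other 5 MDS libraries. In MDS 3, 11 members lay at least 1 log2 unit below it.

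AML 3 was uneven among the members. Rsad2, Oas3, Irf7, Oas2, Oasl2, Mx1, Ifi27l2a, Zbp1, Isg15, Oas1a and Cmpk2 were at least 1 log2 unit below the median of the other AML libraries, and Ifi44, Gbp7, Gbp2, Eif2ak2, Xaf1 and Usp18 at least 1 above. Irf7 was 5.64 in AML 3 and 40.0 to 70.2 in the other 5. Gbp7 was 201 in AML 3 and 16.7 to 107 in the others. Reads of Gbp2 and Oas1a can be shared with near-identical copies.

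**Figure D4:**
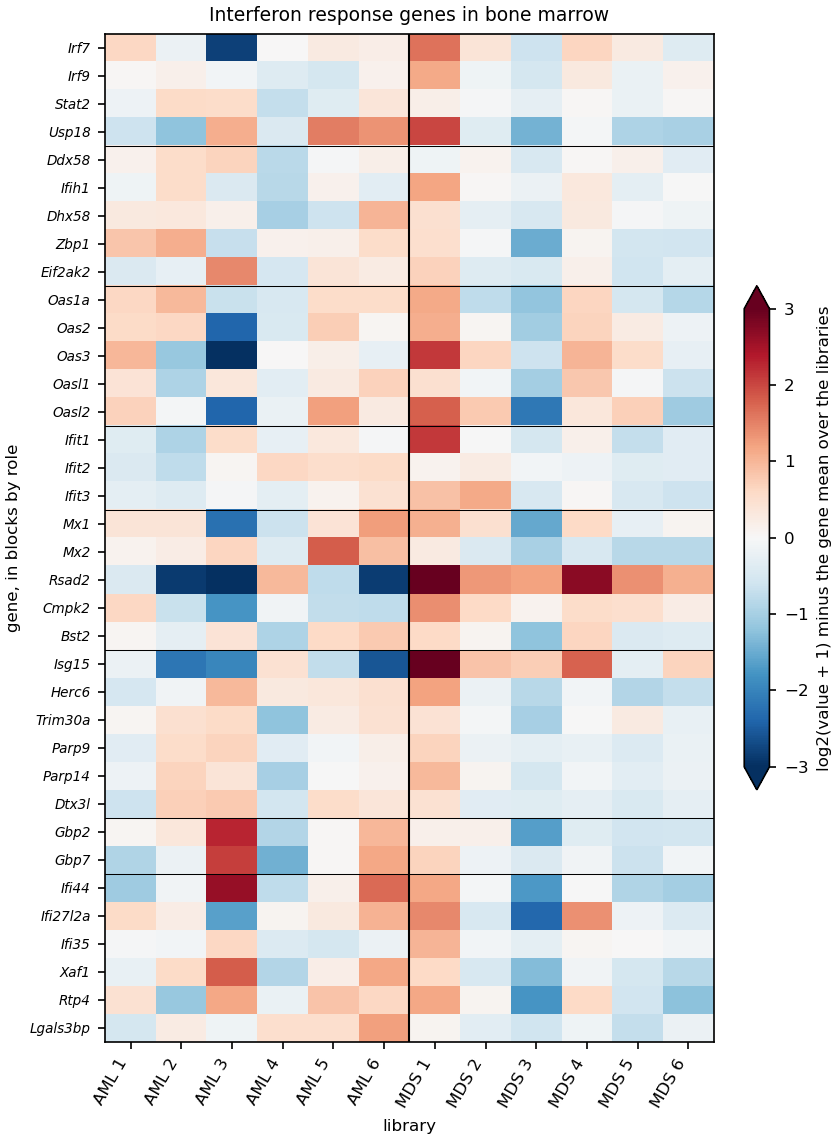
Colour map of log2(value + 1) minus the gene mean over 12 marrow libraries, for 36 interferon response genes in blocks by role, AML 1 to 6 at left and MDS 1 to 6 at right. MDS 1 is highest of the MDS libraries for 31 of 36 genes, and AML 3 holds both high values (Gbp2, Gbp7, Ifi44) and low ones (Rsad2, Oas3, Irf7).

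In stromal cells taken 1 month after ENU, no interferon response gene passed the test against mock, while a single pair of libraries, 1 in each group, stood above the others for nearly all of them. Of the 38 genes 30 passed the filter on low values (at least 1 TPM in 3 libraries), and 0 of 30 were called, as were 0% of all genes (limma). Rsad2, Mx1, Mx2, Oas1a, Oas2, Oas3, Oasl1 and Cmpk2 did not pass the filter. The median log2 change was -0.13 with 20 of 30 below 0 (51.3% of all genes), and no member had an unadjusted p under 0.05 or lay apart without overlap. With a block for the replicate number, since same-numbered libraries deviated together, 0 of 30 members were called in limma. Then 1 member had an unadjusted p under 0.05, as did 1213 of 12089 genes, against 312 genes without the block. The sign of the median rests on single libraries: it was 0.31 without mock 2, with 26 of 30 above 0, and -0.77 without ENU 2, with all 30 below 0. It was also above 0 without ENU 1 (0.19) and without ENU 3 (0.26). Each such fit leaves a library without its same-numbered partner.

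The members with the smallest p show the spread. Ifit2, an RNA-binding relative of Ifit1, was 9.82, 18.3 and 17.1 TPM in ENU and 14.4, 17.7 and 21.8 TPM in mock (-0.26 ± 0.27). Gbp2 was 17.1, 35.4 and 15.2 TPM in ENU and 20.7, 39.5 and 21.9 TPM in mock (-0.31 ± 0.39). Both overlapped between the groups. Irf9, the DNA-binding part of ISGF3, was 16.7, 45.3 and 17.2 TPM in ENU and 19.4, 37.5 and 28.8 TPM in mock (-0.22 ± 0.44), and Dhx58, a helicase that tunes RNA sensing, 2.80, 13.9 and 1.81 TPM in ENU and 3.33, 11.7 and 5.65 TPM in mock (-0.40 ± 0.73). The second library of each group was the highest of its group for Gbp2, Irf9 and Dhx58. Ifi27l2a was 1.58, 45.9 and 1.28 TPM in ENU and 13.3, 49.2 and 2.01 TPM in mock (-0.99 ± 1.52), and Gbp6 1.36, 5.82 and 1.31 TPM in ENU and 2.59, 6.92 and 1.56 TPM in mock (-0.32 ± 0.60). The adjusted p was 1.00 for all 6 (limma).

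ENU 2 and mock 2 both lay above the other 4 stromal libraries for 35 of the 38 members, or 25 of the 27 with a mean of at least 1 TPM over those 4, and 8.5% of all 12068 such genes did. The exceptions were Ifit2, Ifit3 and Mx2, which was at 0 throughout. Isg15 was 7.38, 125 and 4.23 TPM in ENU and 6.05, 65.6 and 8.202 TPM in mock. Bst2 was 23.8, 241 and 22.6 TPM in ENU and 23.1, 127 and 44.8 TPM in mock, and Usp18 1.39, 30.0 and 1.09 TPM in ENU and 1.62, 19.7 and 3.58 TPM in mock. Number 2 is thus the high library in both groups for each of these genes. Over the same 27 members the ratio of the mean in the number 2 libraries to that of the other 4 ran from 1.14 for Ifit2 to 14.7 for Isg15, with a median of 3.62.

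**Figure D5:**
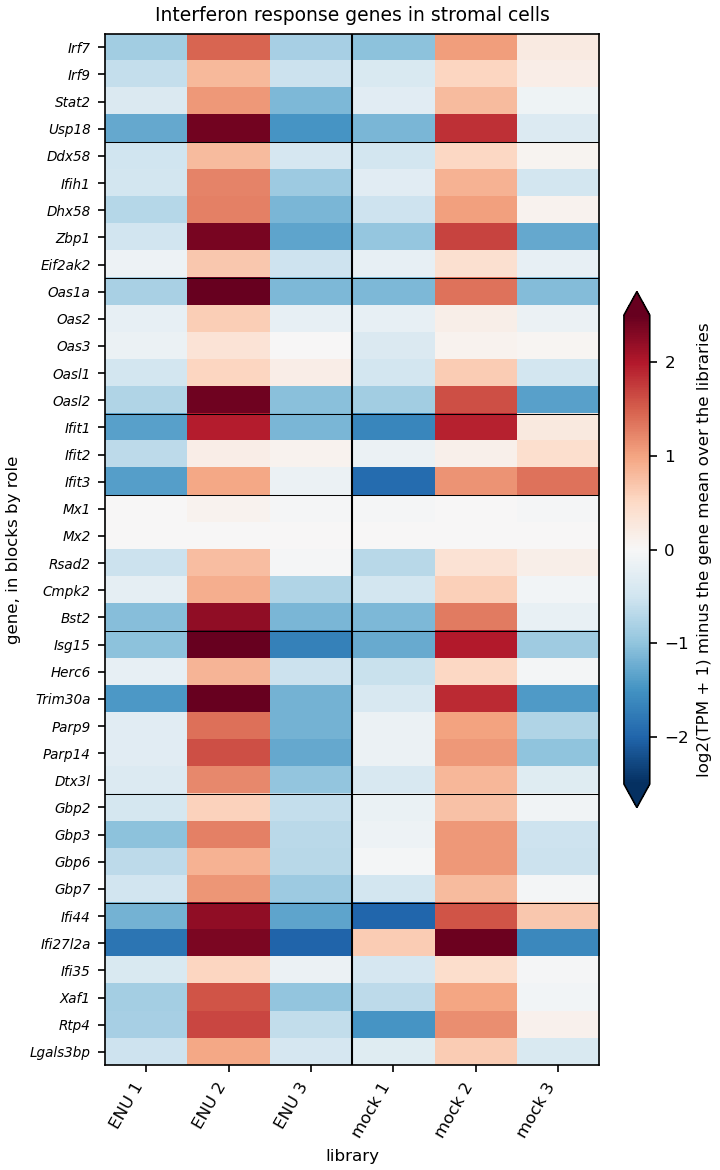
Colour map of log2(TPM + 1) minus the gene mean over 6 stromal libraries, for 38 interferon response genes in blocks by role, ENU 1 to 3 at left and mock 1 to 3 at right. ENU 2 and mock 2 are above the other 4 libraries for 35 of 38 genes, and Ifit3 is higher in mock 3 (73.7 TPM) than in mock 2 (63.1 TPM).

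Ifit3 and Ifit2 were highest in mock 3, and Ifit3 was 10.3, 56.7 and 25.4 TPM in ENU and 6.70, 63.1 and 73.7 TPM in mock. Ifnar1 was 33.0, 33.7 and 28.0 TPM in ENU and 35.2, 34.3 and 28.3 TPM in mock, and Ifnar2 70.9, 77.6 and 73.9 TPM in ENU and 66.9, 91.3 and 128 TPM in mock. Neither receptor gene was highest in both number 2 libraries. Of 62 other interferon-induced genes with the same mean level, 46 were highest in the number 2 libraries, and 9 of 33 pathway genes were. Ifnb1, which encodes interferon beta, was at 0 in all but mock 2 (0.0581 TPM). None of the 34 pathway and 62 other interferon-induced genes tested passed for ENU against mock in limma, and 0 and 3 had an unadjusted p under 0.05.

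Ly6a was 711, 934 and 752 TPM in ENU and 1439, 1234 and 1060 TPM in mock, without overlap, but did not pass (-0.64 ± 0.18, adjusted p = 1.00 by limma). Ptprc was 0.171, 1.29 and 0.0565 TPM in ENU and 0.205, 0.885 and 0.0671 TPM in mock, highest in the number 2 libraries too. Neutrophil and granule genes summed to 15.2, 99.5 and 9.99 TPM in ENU and 35.7, 15.6 and 3.26 TPM in mock. The 12 genes of monocytes and macrophages summed to 110, 159 and 116 TPM in ENU and 127, 147 and 71.9 TPM in mock. Vcam1 made up most of each of these sums except in ENU 2. It was 68.6, 60.2 and 89.1 TPM in ENU and 80.9, 80.8 and 45.8 TPM in mock. Of these 12 genes, 9 were above the other 4 libraries in both number 2 libraries. Of all 12068 genes with a mean of at least 1 TPM over those 4, a filter not applied to these markers, 8.5% were. Of 12 genes of plasmacytoid dendritic cells 6 were, namely Bst2, itself a member, Tcf4, Irf8, Lair1, Tlr7 and Tlr9. Of these Irf8, Lair1 and Tlr9 stayed under 1 TPM. Siglech and Klk1, of the same list, were at 0 in every stromal library. Mrc1, a macrophage mannose receptor, was 0.956, 11.6 and 0.211 TPM in ENU and 1.14, 5.76 and 0.336 TPM in mock. C1qb, a complement subunit made by macrophages, was 0.736, 6.17 and 0.334 TPM in ENU and 0.518, 3.43 and 0.291 TPM in mock. Adgre1, which encodes the macrophage marker F4/80, was detected in the number 2 libraries alone, at 2.23 TPM in ENU 2 and 0.870 TPM in mock 2. These 9 genes of monocytes and macrophages were high in the same libraries as the interferon response genes, while Cd14, Ly6c2 and Vcam1 were not. The same held for 4 of 10 neutrophil genes (Elane, Mpo, Ctsg and Mmp8), of which Elane, Mpo and Ctsg were under 1 TPM in mock 2. It also held for 3 of 8 stromal genes (Pdgfra, Cxcl12 and Eng), 1 of 14 T and NK cell genes and 0 of 10 erythroid genes. The T cell genes Cd3e and Cd3g were at 0 in every stromal library. The part of such cells in the interferon gene values of the number 2 libraries was not tested.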

How the data were processed

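RNA was extracted with TRIzol and made into stranded mRNA libraries (TruSeq), per the labels' protocols. The submitters' processing notes name mm10, TopHat, SAMtools, FastQC, bcl2fastq and edgeR, with no roles or versions. The read counter was not given in the sources used here. LSK and marrow values, deposited under the name CPM by the authors, had library sums unlike those of CPM and were treated as normalised signal, for which the log-scale test planned for CPM still served. The deposited stromal values are TPM, which keep no depth. In marrow, 99.99 to 100% of values were whole multiples of 1 step per library (within 0.05 of a read), and 155 rows that repeated a gene under an alias were merged.

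Whole tables were fitted with limma 3.58.1 (R 4.3.3, trended empirical Bayes) on log2(value + 1), and p-values were adjusted by Benjamini-Hochberg, with a threshold of 0.05. A gene was tested if it reached 1 in enough libraries to fill the smaller group compared. Log2 changes on this scale understate those of low genes. All 4 LSK groups shared 1 estimate of the spread. Tables were normalised separately and are not compared. The fits were tested on simulated data. Summaries used Python 3.11.15 with pandas 2.3.3, NumPy 2.4.6 and matplotlib 3.10.9.

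The members, lists and comparisons were chosen with earlier results of these data known. Values per library were given for members past the threshold and for the 6 with the smallest p in each comparison, and Ifnar1, Ifnar2, Ly6a and Trp53 were always given. 1 further gene of that rule is not reported here. Other lists are given as counts with up to 4 genes. Sp110 is the exception.

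The settings varied were the pseudocount (0.1), the filter, the rescaling (median of ratios), a block for the replicate number, each library left out, the grouping, and edgeR 4.0.16 on reads recovered in marrow. Same-numbered stromal libraries deviated from their group means together (r = 0.501, 0.674 and 0.718 for numbers 1, 2 and 3), so the numbers pair them, although no label says why. LSK and marrow numbers did not pair.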

Additional observations from a re-analysis of the deposited data

Results flagged for a closer look

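In groups of 6 marrow libraries, 20 values stood far from the other 5 of their group by Dixon's test on values without logs. The test flags about 1 in 20 groups by chance if values are normally distributed and groups independent. Values without logs can be skewed and many flags share 1 library, so the count is not set against that rate. In AML, Rsad2 was 306 in AML 4, where the next AML library was at 115. AML 3 held 3 such values, with Ifi35 at 53.6, the kinase Eif2ak2 (PKR) at 152 and Gbp2 at 73.6.

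The other 16 were all the highest value of MDS 1. Among the regulators Irf7 was 142, Irf9 167 and Usp18 25.9. Ifit1 was 25.02, Mx2 2.49, Oas3 244, Cmpk2 98.1 and the RNA sensor Ifih1 (MDA5) 72.3. Isg15 was 292, Herc6 76.4, Parp9 83.0, Parp14 168 and Dtx3l 109. Ifi44 was 9.11, Ifi35 70.7 and Gbp7 76.1. In the same library the erythroid genes summed to 18543, against 5567 to 9432 in the other MDS libraries. Neutrophil and granule genes summed to 57586 there, the lowest of the MDS libraries. Their part in these values was not tested.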

How the results depend on the processing

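Of 750 repeats of the 54 results for single genes, 684 kept their direction and their side of the threshold, 37 lost and 24 gained a call, and 5 changed sign. All 37 lost calls were those of Gbp6 and Ifit3 in all EAP against all WT and of Rsad2 in AML against MDS. These were the 3 results that had passed. The others had not passed, so that most kept their side of the threshold says little of stability. The sign changes were all in ENU against mock stromal cells, over single libraries left out. Dhx58 ran from -1.13 (without ENU 2) to 0.075 (without ENU 3) and Gbp6 from -0.84 (without ENU 2) to 0.14 (without mock 2). Irf9 ran from -0.67 (without ENU 2) to 0.023 (without ENU 1). For all EAP against all WT the count of members was 0 with the replicate block, where 0.0351% of all genes were called. It was 0 with 2 groups of 6 (0.123%) and 0 with transplanted WT as the only controls (0.0341%). It was 7 with a term for the 3 libraries that stand apart (2.86%) and 13 without them (3.24%). These last 3 settings were added after seeing the data. Over single libraries left out the count was 0 to 3, with 3 reached without EAP 1 (0.278%). For AML against MDS the count of members was 0 with a pseudocount of 0.1 (1.29% of all genes) and 0 in edgeR (3.97%). It was 3 with the replicate block (Rsad2, Isg15 and Cmpk2), where 1.25% of all genes were called. Over single libraries left out it was 0 to 5, with 5 reached without AML 1 (21.9% of all genes). Transplanted WT against WT gave 3 members with the term (275 genes in all) and 1 without the 3 libraries (490 genes), and over single libraries left out its median was lowest without WT 2 (-0.53) and highest without transplanted WT 3 (-0.080). The median of EAP with ENU against transplanted WT was -0.34 without the 3 libraries, and -0.34 to 0.011 over single libraries left out. In AML with ENU against AML without ENU the median was -0.99 with the replicate block, and over libraries left out the count was 0 to 11 and the median -0.36 to 0.14. The cause of these differences was not tested. The block moved no other count of members past the threshold. LSK and stromal depth is unknown, and with 2 or 3 libraries a group a change that missed the threshold is not shown to be absent.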
